A study of Mus musculus with 4 samples.

Results

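Promoters that sit among many other promoters were examined in H3K4me3 HiChIP-seq of MLg cells, a mouse lung fibroblast line. A promoter was included when at least 15 other protein-coding transcription start sites (TSS) lay within 250 kb of its own TSS, counting 1 TSS for each gene of the GENCODE annotation of mm10. Genes of the autosomes were considered, and genes whose names start with Olfr, Vmn, Hist, Pcdh or Zfp were left out of the set but still counted as neighbours. The rule uses the annotation alone and no measured value. It found 4499 of 20807 genes, called members here, which is 21.6%. Members had 15 to 46 neighbours with a median of 21, and the remaining 16308 promoters, called the other promoters, had a median of 7. There were 468 members with exactly 15 neighbours, and 518 genes with 14 lay just outside the rule. The other promoters include 1154 genes of the left-out families that have 15 or more neighbours.

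HiChIP-seq joins the ends of DNA fragments that are close in the nucleus and then pulls down the joined fragments with an antibody, here against H3K4me3. Read pairs therefore report contacts between pairs of places and are enriched for places that carry the mark, over a background of pairs that were not pulled down through it. MLg cells were transfected with antagomiR at 60 nM and harvested 24 h later. There was 1 library for each of 4 conditions. In Control neither TGFB1 nor the antagomiR against miR-9 was used, and in TGFB1 the cytokine was present at 5 ng/ml for the last 4 h. In miR-9-LOF (loss of function) the cells received the miR-9-specific antagomiR, and TGFB1+miR-9-LOF, also called the combined treatment, had both. Wherever 4 values are given for the 4 libraries, they stand in the order Control, TGFB1, TGFB1+miR-9-LOF, miR-9-LOF. Control and TGFB1 cells received a control antagomiR according to the text of the study, and their labels do not name it. All libraries came from 1 cell line, and none has a replicate, so no difference between conditions can be tested. The libraries held 10864558 to 15568047 valid pairs, of which 80.2 to 84.6% joined places on the same chromosome. Of the fibroblast markers examined 5 of 13 had a marked promoter (defined further on), namely Vim, Col5a1, Pdgfra, Col1a1 and Pdgfrb. Col3a1, Fn1, Col1a2, Thy1, Dcn and Lum did not, nor did the lung mesenchyme factors Tbx4 and Tcf21. No promoter was marked among 7 epithelial, 4 endothelial and 5 immune cell markers. The summed level of the fibroblast markers was 74.6 to 148 per 1000000 ends over the libraries for 13 genes, against 16.0 to 18.9 for the 7 epithelial markers, and the median per gene was 4.65 and 2.06.

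H3K4me3 is laid down at the start of genes that are being or can be transcribed, and in mammals it accompanies promoters rich in CpG dinucleotides. Gene-dense stretches of mammalian chromosomes hold many genes used by all cells, such as those of ribosomes, splicing and the cell cycle, and lie in open chromatin. They also hold tandem arrays, in which copies of one ancestral gene lie side by side and are used in a single tissue, such as keratins in the skin or kallikreins in glands. Both kinds of neighbourhood meet the rule.

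The sequences of promoters at both ends of the range are shown to make this difference visible. They are RefSeq sequences on GRCm38.p6 from 250 bases before to 50 bases after the start of a transcript, 5′ to 3′ on the strand of the gene, with every CpG in capitals. Ptbp1 encodes a regulator of splicing (chr10:79854182-79854481, plus strand), Cdk4 a kinase that drives entry into the cell cycle (chr10:127063285-127063584, plus strand) and Nlgn2 an adhesion molecule of synapses (chr11:69837735-69838034, minus strand). All 3 are among the 5 members with the most ends. Slc39a7, a zinc transporter of the endoplasmic reticulum (chr17:34031641-34031940, minus strand), and Cdca5, which holds sister chromatids together (chr19:6084847-6085146, plus strand), were the highest members of their stretches. Klk1b22, a kallikrein (chr7:44112423-44112722, plus strand), and Krt12, a keratin of the cornea (chr11:99422210-99422509, minus strand), belong to tandem arrays. They were the lowest members of their families with a RefSeq start within 100 bases of the GENCODE TSS and were chosen after their values were seen.
Ptbp1: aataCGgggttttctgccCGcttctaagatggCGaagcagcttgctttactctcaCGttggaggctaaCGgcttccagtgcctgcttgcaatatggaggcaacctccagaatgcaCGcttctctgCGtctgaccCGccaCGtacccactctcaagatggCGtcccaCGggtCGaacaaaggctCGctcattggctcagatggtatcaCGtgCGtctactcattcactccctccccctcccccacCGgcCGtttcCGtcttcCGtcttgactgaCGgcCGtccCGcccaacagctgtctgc
Cdk4: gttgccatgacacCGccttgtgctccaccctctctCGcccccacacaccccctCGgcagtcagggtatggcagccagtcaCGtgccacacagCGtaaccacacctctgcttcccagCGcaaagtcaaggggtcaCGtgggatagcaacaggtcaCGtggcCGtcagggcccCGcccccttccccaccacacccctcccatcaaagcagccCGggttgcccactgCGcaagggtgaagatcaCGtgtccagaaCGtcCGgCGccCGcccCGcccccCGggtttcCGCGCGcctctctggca
Nlgn2: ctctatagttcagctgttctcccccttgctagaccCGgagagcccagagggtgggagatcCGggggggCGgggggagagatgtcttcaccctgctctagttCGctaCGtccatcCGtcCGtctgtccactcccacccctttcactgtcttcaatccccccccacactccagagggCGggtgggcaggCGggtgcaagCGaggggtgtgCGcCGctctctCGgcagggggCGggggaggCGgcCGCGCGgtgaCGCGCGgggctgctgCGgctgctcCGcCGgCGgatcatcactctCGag
Slc39a7: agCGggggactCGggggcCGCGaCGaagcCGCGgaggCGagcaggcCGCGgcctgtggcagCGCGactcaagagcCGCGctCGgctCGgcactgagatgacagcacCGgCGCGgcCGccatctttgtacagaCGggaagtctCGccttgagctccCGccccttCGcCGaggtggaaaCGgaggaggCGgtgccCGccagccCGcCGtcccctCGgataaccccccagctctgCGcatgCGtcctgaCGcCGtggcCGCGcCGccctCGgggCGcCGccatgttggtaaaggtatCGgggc
Cdca5: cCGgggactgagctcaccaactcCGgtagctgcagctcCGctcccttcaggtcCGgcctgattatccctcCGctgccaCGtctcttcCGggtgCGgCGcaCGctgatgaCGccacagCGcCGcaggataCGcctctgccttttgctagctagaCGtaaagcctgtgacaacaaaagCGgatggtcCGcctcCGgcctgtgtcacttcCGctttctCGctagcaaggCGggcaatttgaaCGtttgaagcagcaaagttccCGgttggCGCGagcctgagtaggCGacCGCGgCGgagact
Klk1b22: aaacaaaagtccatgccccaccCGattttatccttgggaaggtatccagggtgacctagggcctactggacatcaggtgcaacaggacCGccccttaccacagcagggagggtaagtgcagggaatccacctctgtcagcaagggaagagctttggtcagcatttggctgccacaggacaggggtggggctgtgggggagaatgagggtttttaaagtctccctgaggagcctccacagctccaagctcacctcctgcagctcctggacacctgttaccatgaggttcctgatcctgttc
Krt12: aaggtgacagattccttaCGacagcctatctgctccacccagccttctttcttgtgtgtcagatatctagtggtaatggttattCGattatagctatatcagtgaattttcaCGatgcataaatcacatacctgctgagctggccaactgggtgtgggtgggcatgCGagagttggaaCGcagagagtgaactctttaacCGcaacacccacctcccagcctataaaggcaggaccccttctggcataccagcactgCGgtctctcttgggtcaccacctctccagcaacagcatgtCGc

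The window of Slc39a7 held 42 CpG, that of Cdca5 29, that of Nlgn2 26, and those of Ptbp1 and Cdk4 22 each. The window of Krt12 held 8 and that of Klk1b22 held 2. A promoter sequence was matched for 3435 members and for 15686 of all 20807 genes. The median was 14 CpG in members and 15 in the other promoters, so the members as a whole were not richer in CpG in these 300 bases. Members in tandem arrays (at least 5 other members with the same leading letters of the name within 250 kb) had a median of 2 CpG, against 16 in the remaining members. The letters GGGCGG, on either strand, occurred in 50.7% of members and 48.8% of all matched promoters, CCAAT in 40.3% and 38.4%, CCGGAAG in 13.9% and 12.6%, and TATAAA in 12.5% and 12.9%. None of these motifs contains another. Within the set the shares were further apart. GGGCGG was found in 8.33% of tandem members and in 54.9% of the remaining members, and TATAAA in 37.2% and 10.1%.

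The members were spread unevenly over the genome. Chromosome 7 held 713 of them and chromosome 11 held 572, while chromosome 12 held 18. On chromosomes 17, 19, 7, 11 and 15 the members made up 37.5%, 35.3%, 35.2%, 34.9% and 34.8% of the genes. Joined where the next member TSS lay within 250 kb, the members formed 206 stretches, and the 10 largest held 1192 members, or 26.5%. The windows of 2 kb on either side of the TSS had a median GC content of 50.9% in members and 47.5% in the other promoters, and the surrounding 500 kb had 48.0% and 43.5%. The restriction enzyme MboI, which cuts the chromatin before ligation, had a median of 10 sites in the windows of members and 9 in those of the others. Another coding TSS lay within 2 kb for 970 members, or 21.6%, and for 12.7% of the other promoters, and such neighbours share most of the ends counted for them.

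The level of a promoter is the number of pair ends within 2 kb of its TSS for every 1000000 ends on the autosomes of that library. The median member had a higher level than the median other promoter in each of the 4 libraries. In Control the medians were 5.82 and 3.10, a ratio of 1.88. In TGFB1 they were 5.00 and 2.98 (ratio 1.68), in the combined treatment 4.20 and 2.75 (1.53), and in miR-9-LOF 4.37 and 2.74 (1.59). Members were thus higher in 4 of 4 libraries, with a two-sided exact sign-flip permutation p = 0.13, the smallest that 4 libraries allow, so that no such test here can reach 0.05. At these depths a median member window held 104 to 171 ends, which sets the counting error of a single promoter. Summed over the members, with ends in overlapping windows counted at each promoter, their ends came to 4.55% of all autosomal ends in Control, 3.53% in TGFB1, 2.41% in the combined treatment and 2.74% in miR-9-LOF.

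Among the other promoters the level hardly varied with the number of neighbours, and within the members it was higher with more neighbours up to 29. The mean level over the libraries had a median of 2.90 with 0 to 4 neighbours, 3.31 with 5 to 9 and 3.36 with 10 to 14. It was 4.19 in members with 15 to 19 neighbours, 5.02 with 20 to 24 and 6.21 with 25 to 29. In the 684 members with 30 to 46 neighbours it was 5.15, below the class before it, and this order held in each of the 4 libraries. The left-out families with 15 or more neighbours stood at 0.992, and without them the ratio of members to other promoters was 1.52 on average over the libraries, higher in 4 of 4 libraries (exact sign-flip permutation p = 0.13). Against promoters with 10 to 14 neighbours the mean ratio was 1.45.

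**Figure D1:**
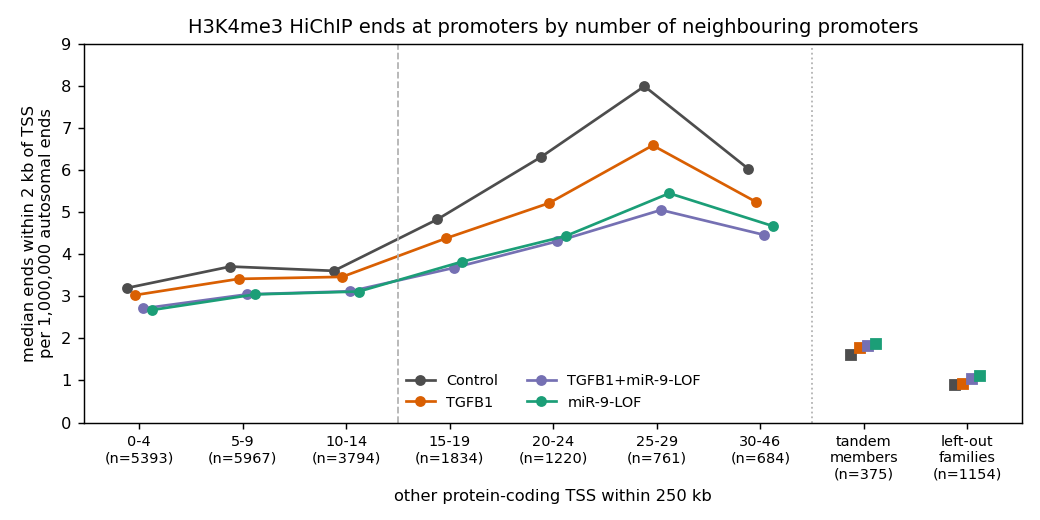
Median level (ends within 2 kb of the TSS per 1000000 autosomal ends, vertical axis) of promoters grouped by the number of other protein-coding TSS within 250 kb, with 1 line for each library. Members lie right of the dashed line, and the squares show the 375 members in tandem arrays, which are also in the member classes, and the 1154 genes of the left-out families. The highest class is 25 to 29 neighbours, at 5.05 to 7.995, and the tandem members lie at 1.60 to 1.86.

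The difference was smaller among promoters of like GC content. The promoters were divided into 4 classes at the GC quartiles of the members' windows (47.8%, 50.9% and 53.8%). In both middle classes the mean ratio of members to others over the libraries was 1.10 and 1.12, while in the lowest and highest classes it was 1.35 and 1.43. Members were higher in 4 of 4 libraries in each class. Promoters with no other coding TSS within 4 kb, whose windows overlap no other, gave a mean ratio of 1.504. On 18 of 19 autosomes the median member was higher than the median other promoter, with ratios from 1.07 on chromosome 11 to 2.47 on chromosome 19. Chromosome 16 went the other way, at 0.908, and 31 of its 89 members belonged to a stretch led by keratin-associated proteins at a median level of 0.712.

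The surroundings of members also had a higher level. The median 4-kb bin within 250 kb of a member carried 2.75 ends per 1000000, against 1.70 around the other promoters. It was 2.42 around members with 15 to 19 neighbours and 3.15 around those with 30 to 46. A promoter was called marked when its mean level was at least 4-fold this local median. By this measure 982 members, or 21.8%, were marked, which is below the 24.2% of all 20807 promoters and the 24.9% of the other promoters. Measured against the mean of the chromosome the order was reversed, with 39.2% of members marked, 31.1% of all promoters and 28.8% of the others. With windows of 1 kb on either side it was 34.3% of members and 33.8% of the others. The order of the shares of marked promoters thus depended on the background and the window chosen. The median level of marked members was 23.5, 17.2, 10.4 and 12.5 in the 4 libraries, and that of other marked promoters 16.8, 12.4, 7.62 and 8.70. The rule for marked promoters sets a higher bar around members, where the local median was 2.92 against 1.85 at other marked promoters, so these levels are a description. Relative to the local median marked members were lower, at 5.50-fold against 6.01-fold.

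Marked members were CpG-rich. The 787 marked members with a sequence had a median of 22 CpG in 300 bases, and the 2648 unmarked members had 11. Of the members with 0 to 4 CpG 2.71% were marked, of those with 10 to 14 CpG 20.1%, and of those with 30 or more 46.4%. The other promoters had nearly the same shares at the ends of this range, 2.67% and 46.8%, but higher ones at 10 to 14 CpG (27.7%) and at 20 to 29 CpG, where 42.3% of the others and 35.5% of members were marked. At a like number of CpG the level of members was above that of the other promoters, for example 10.9 against 7.08 with 30 or more and 2.16 against 1.16 with 0 to 4. GGGCGG was found in 69.5% of marked and 45.1% of unmarked members, CCGGAAG in 24.5% and 10.8%, and TATAAA in 7.12% and 14.2%. The other promoters differed in the same directions, with a median of 24 CpG in marked and 9 in unmarked ones. Their shares were 70.2% and 40.7% for GGGCGG, 21.05% and 9.13% for CCGGAAG, and 5.59% and 15.6% for TATAAA. These differences between marked and unmarked promoters were thus not particular to members. A second promoter close by went with the mark too. Of the 970 members with another coding TSS within 2 kb 46.2% were marked, and of the remaining 3529 members 15.1%. In the other promoters these shares were 52.7% and 20.8%.

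The 5 members with the most ends were Ptbp1, Tmem256, Nlgn2, Cdk4 and Sf3a2. Ptbp1 (ENSMUSG00000006498.16, chromosome 10, TSS 79854427) had 33 neighbours and a level of 68.2, 48.9, 26.9 and 31.8 in the 4 libraries, from 2005, 1016, 723 and 938 ends. Its exact Poisson interval was 65.3 to 71.3 in Control, 45.9 to 52.0 in TGFB1, 24.9 to 28.9 in the combined treatment and 29.8 to 33.9 in miR-9-LOF. These 95% intervals do not overlap, but they cover counting error only. Cdk4 (chromosome 10, TSS 127063534) had 59.9, 45.6, 23.3 and 28.3 in the same order. Sf3a2, a subunit of the U2 small nuclear ribonucleoprotein of the spliceosome (chromosome 10, TSS 80798198), had 63.1, 43.2, 21.2 and 29.5. Plekhj1 starts on the opposite strand at 80798626 and shares most of these ends. Tmem256, a small membrane protein gene (chromosome 11, TSS 69838514), had 62.7, 46.5, 26.6 and 31.9. Nlgn2 starts on the opposite strand at 69837784, so both windows cover nearly the same ends, and its levels were 60.9, 45.2, 25.4 and 30.9. All 5 were highest in Control and lowest in the combined treatment, the order that the marked promoters took as a whole.

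Members named after ubiquitous complexes were marked more often than those of lineage-restricted families. Of 131 members whose names begin with stems of ribosomal proteins, mitochondrial ribosomal proteins, proteasome subunits, NADH dehydrogenase subunits, RNA polymerase subunits, translation factors, splicing factors or Rab GTPases, 56 were marked by the local measure and 89 by the chromosome mean. Their median level was 9.54. Genes with these stems outside the set were marked more often still, 153 of 304 by the local measure, so that frequent marking of these genes was not particular to members. Mitochondrial ribosomal proteins of the large subunit (Mrpl) reached a median of 14.3 with 9 of 17 marked, and proteasome subunits (Psm) 7.03 with 6 of 20. Members with the stem Rps stood at 11.8 with 7 of 13 marked. That stem names cytosolic ribosomal proteins of the small subunit but also takes in the kinase gene Rps6ka4. Of 360 members with stems of lineage-restricted families 8 were marked by the local measure and 14 by the chromosome mean, and their median level was 1.88. Genes with these stems outside the set were rarely marked too, 19 of 415 by the local measure. Rare marking of these families was thus not particular to members. Shares of all promoters marked were 24.2% and 31.1%, as above.

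None of 51 keratins (Krt), 49 keratin-associated proteins (Krtap), 26 kallikreins (Klk), 21 late cornified envelope genes (Lce), 15 small proline-rich genes (Sprr), 28 beta-defensins (Defb), 18 interferons (Ifn) or 18 bitter taste receptors (Tas2r) was marked. Their median levels lay between 0.811 for the interferons and 2.90 for the keratins. In the major histocompatibility complex 3 of 27 H2 genes were marked, and of 43 genes with a Cd number 4 were. The 375 tandem members had levels of 1.60, 1.78, 1.82 and 1.86 in the 4 libraries. The median tandem member was lower than the median other promoter in 4 of 4 libraries (exact sign-flip permutation p = 0.13). Among tandem members Control was the lowest library, while it was the highest among marked promoters. In unmarked other promoters Control was lowest too, at 1.97, 2.02, 2.04 and 1.997. The left-out families with 15 or more neighbours had 0.885, 0.914, 1.04 and 1.12. Unmarked members had 3.84, 3.75, 3.38 and 3.39, with Control highest. A lowest Control was thus not particular to tandem members. Near-identical copies cannot be told apart by short reads, so that levels in recent arrays are uncertain. Among the stretches with at least 10 members the lowest, 40 members on chromosome 8 that begins with the alpha-defensin Defa23, had a median of 0.0525 ends per 1000000.

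The 3 stretches with the most members differed in level. The stretch on chromosome 7 from Siglecg to Nomo1 (TSS 43408204 to 46033698) held 146 members, 26 of them tandem kallikreins, at a median level of 3.80 with 24 marked. Its highest member was Tbc1d17, a regulator of Rab GTPases, with 37.8, 27.7, 13.2 and 19.3 in the 4 libraries. Its lowest was the kallikrein Klk1b26 with 0.544, 0.866, 1.23 and 1.32, from 16 to 39 ends. The stretch on chromosome 17 from Hnrnpm to H2-T3 (33686860 to 36190287), which spans the major histocompatibility complex, also held 146 members, at a median of 5.75 with 35 marked. There Slc39a7 was highest, at 52.5, 38.2, 21.8 and 29.7, and the predicted gene Gm7029 was lowest, at 0.204, 0.337, 0.111 and 0.339. Rxrb starts on the opposite strand at 34031812, so its window covers nearly the same ends as that of Slc39a7. The stretch on chromosome 19 from Kmt5b to Sf1 (3767421 to 6363690) held 134 members and no tandem family, at a median of 10.9 with 36 marked. Cdca5 was highest there with 46.8, 37.3, 20.1 and 22.4, and the glutathione transferase Gstp2 lowest with 1.70, 0.673, 1.08 and 1.96. Over the 117 stretches with at least 10 members the median level ran from 0.0525 to 15.3, the highest being 22 members on chromosome 19 from Rps6ka4 to Cox8a, and 8 of these stretches held no marked member.

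The members with the most neighbours differed widely in level. Of the genes with 46 neighbours Clic1, a chloride channel protein, had 37.5, 25.2, 15.6 and 21.7 in the 4 libraries. Vwa7, on the same stretch of chromosome 17, had 2.18, 1.92, 1.67 and 1.73. Clic3 on chromosome 2 had 3.03, 1.83, 2.60 and 2.37.

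Contacts of marked members were short. Of all ends at marked members in Control 31.0% had their partner within 20 kb, against 24.8% at other marked promoters, and 12.9% had it over 2 Mb away on the same chromosome, against 17.2%. In the other libraries the shares within 20 kb were 35.4% and 28.5% in TGFB1, 26.5% and 20.997% in the combined treatment, and 26.6% and 20.8% in miR-9-LOF. Partners on another chromosome took 17.9% and 17.3% in Control. Among the ends whose partner lay 20 kb to 2 Mb away, 26.7% of those at marked members and 19.5% of those at other marked promoters reached 20 to 50 kb in Control. From 500 to 1000 kb it was 7.30% and 11.9%. Within 250 kb lay 75.1% and 63.2% in Control, 75.2% and 63.2% in TGFB1, 73.4% and 62.1% in the combined treatment and 73.0% and 61.3% in miR-9-LOF. Each of these shares differed in the same direction in 4 of 4 libraries (exact sign-flip permutation p = 0.13). For the share within 250 kb the libraries lay closer to each other than members did to the other promoters.

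**Figure D2:**
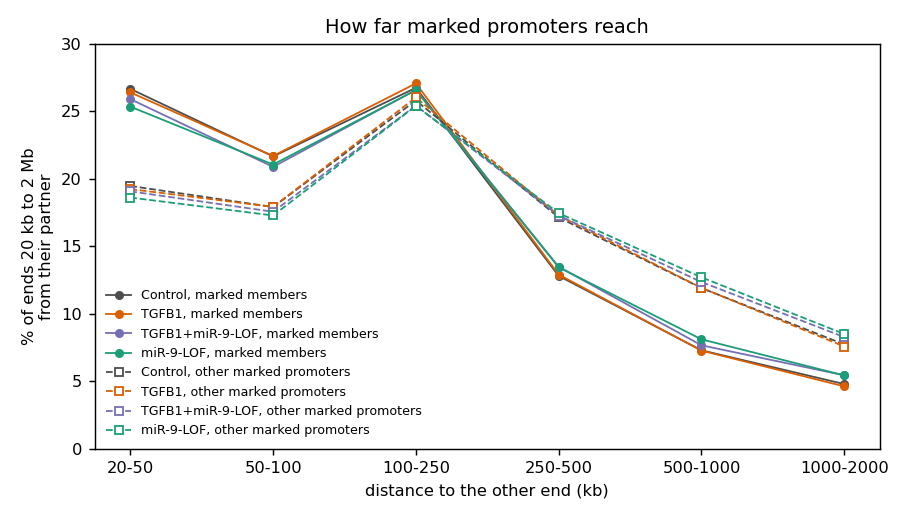
Share of ends (percent, vertical axis) at marked promoters by the distance to their partner (kb, horizontal axis), among ends whose partner lies 20 kb to 2 Mb away, for members (filled circles) and other promoters (open squares) in each library. Members lie above the others up to 250 kb and below them from 250 kb on, at 26.7% and 19.5% for 20 to 50 kb in Control.

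The partner was often another promoter. In Control 28.4% of the contacts of marked members between 20 kb and 2 Mb ended in the window of another coding gene, against 9.66% for other marked promoters. The shares were 28.0% and 9.62% in TGFB1, 24.5% and 8.15% in the combined treatment and 24.7% and 8.18% in miR-9-LOF. The rule gives members more promoters nearby, so these shares are a description. Promoter windows covered a median of 15.2% of the bases within 250 kb of a marked member and 4.80% around other marked promoters. Divided by this cover, the share was lower at members in each library, at 1.87 and 2.01 in Control and 1.62 and 1.70 in miR-9-LOF. The cover was taken within 250 kb while the contacts reached to 2 Mb, so this order is a description only.

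Pairs joining 2 member windows were counted next. Windows that overlap were merged, which left 3810 windows with a member and 15057 without, and 105442 pairs of member windows lay 20 kb to 2 Mb apart. The number expected from distance is the mean number of pairs between 4-kb blocks of the autosomes at the same distance. In Control 60293 pairs joined member windows where 5017 were expected, a ratio of 12.02, against 7.77 for pairs of windows without a member. The ratios were 8.89 and 5.81 in TGFB1, 5.45 and 3.45 in the combined treatment and 6.46 and 3.88 in miR-9-LOF. Members were higher in 4 of 4 libraries, by 1.58 times on average (exact sign-flip permutation p = 0.13). The exact Poisson interval of the member ratio in Control was 11.9 to 12.1, which covers counting error alone.

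The order turned when the coverage of the windows was taken into account. The second expectation multiplies the coverages of both windows and a factor for their distance. The ratio to it was 0.455 for members and 0.660 for the others in Control, 0.560 and 0.781 in TGFB1, 0.672 and 0.885 in the combined treatment and 0.586 and 0.800 in miR-9-LOF. Members were lower in 4 of 4 libraries (exact sign-flip permutation p = 0.13). Both kinds of promoter thus had fewer pairs than this expectation, which rises by construction with the coverage of the windows. The part of coverage in the difference was not tested.

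The ratio to distance differed more at unmarked than at marked promoters. Pooled over the libraries, pairs of unmarked member windows had a ratio of 4.28 and those of unmarked other windows 1.96. For marked windows the pooled ratios were 30.3 and 27.2, from 26493 pairs over 4238 pairs of member windows and 38285 pairs over 12982 pairs of other windows. By distance alone, marked members were higher than other marked promoters below 250 kb and lower beyond it. Over the number expected from distance and coverage they were lower in both ranges, for example 0.448 and 0.593 from 20 to 250 kb in Control, in 4 of 4 libraries (exact sign-flip permutation p = 0.13), so that the order below 250 kb turned with the expectation used. From 20 to 50 kb the ratio was 52.0 for members and 40.0 for the others in Control, 36.2 and 28.7 in TGFB1, 18.96 and 13.98 in the combined treatment and 22.8 and 16.2 in miR-9-LOF. From 250 to 500 kb it was 34.5 and 44.8 in Control, 22.5 and 31.1 in TGFB1, 12.7 and 15.3 in the combined treatment and 16.4 and 17.8 in miR-9-LOF. Each difference had the same direction in 4 of 4 libraries (exact sign-flip permutation p = 0.13). The ratio of the other marked promoters hardly moved with distance, while that of members was 33.1 within 250 kb and 20.6 beyond it. Among the 3 largest stretches the ratio of all member windows, pooled over the libraries, was 5.87 on chromosome 7, 8.20 on chromosome 17 and 14.6 on chromosome 19, the same order as their median levels. Over the 77 stretches with at least 10 members and 50 expected pairs it ran from 0.165 to 18.8 with a median of 8.20. By distance alone, unmarked members stayed above unmarked other promoters beyond 250 kb as well, at 2.93 and 1.88. Over distance and coverage unmarked members were lower, at 0.570 and 0.879 from 20 kb to 2 Mb, pooled over the libraries. Beyond 250 kb it was 0.305 and 0.743 in Control, with members lower in 4 of 4 libraries in both ranges. The unmarked groups also differed in level, since 22.7% of unmarked members and 7.84% of unmarked others were marked by the chromosome mean. Where promoters were called marked by the chromosome mean, the order within 250 kb was lost, at 24.3 for members and 24.6 for the others, and that beyond 250 kb stayed, at 15.1 and 22.7.

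**Figure D3:**
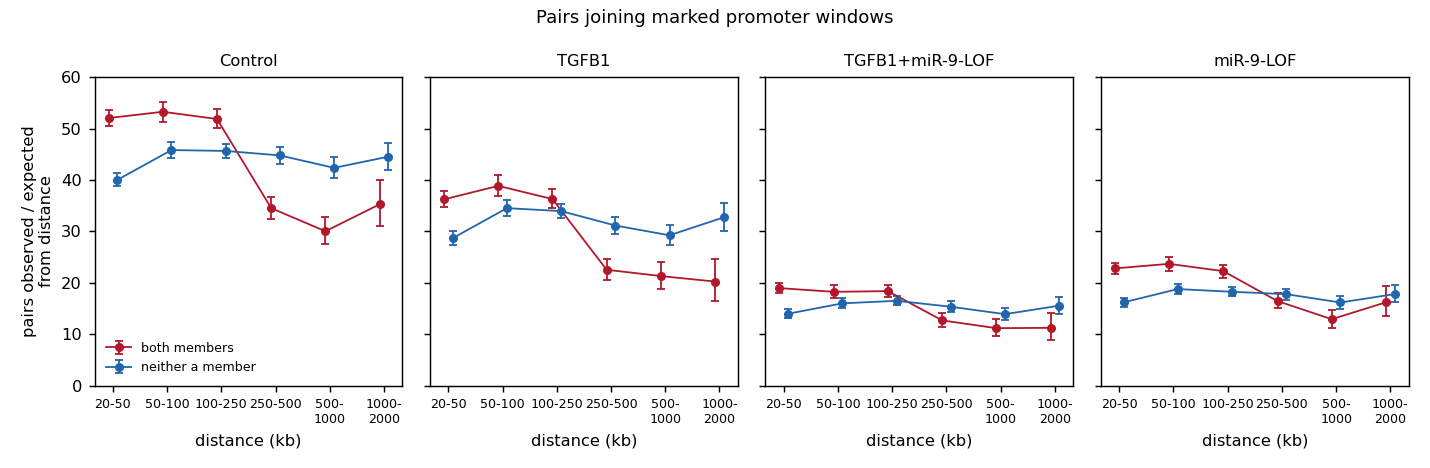
Pairs joining marked promoter windows over the number expected from distance (vertical axis) by distance (kb, horizontal axis), where both windows hold a member (red) or neither does (blue), in 1 panel for each library. Bars are 95% exact Poisson intervals of counting error. In Control members lie at 52.0 and the others at 40.0 from 20 to 50 kb, and at 34.5 and 44.8 from 250 to 500 kb.

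Piled on each other, the contacts of marked members stood on a raised ground. Pairs were collected around 638 pairs of marked member windows and 1215 pairs of other marked windows 100 to 250 kb apart, in squares of 2 kb. In the central square, where both ends fall on a promoter, the ratio to distance in Control was 101 for members (94.97 to 107) and 101 for the others (97.3 to 106). In the lines where 1 end falls on a promoter and the second at least 10 kb from the other promoter it was 23.5 and 18.3. Where both ends lie at least 10 kb away from the promoters of the pair it was 3.19 and 1.46. Windows of further promoters were not left out of these squares, and the rule places more of them around members. Promoter windows covered a median of 15.2% of the bases within 250 kb of a marked member and 4.80% around other marked promoters. The ground and the ratios to it are thus a description. This ground was higher around members in 4 of 4 libraries, at 2.77 and 1.46 in TGFB1, 2.41 and 1.39 in the combined treatment and 2.63 and 1.34 in miR-9-LOF. The central ratios of members and others had no common order over the libraries (exact sign-flip permutation p = 0.75, higher at members in 1 of 4). The centre exceeded its ground by 31.6-fold at members and 69.4-fold at the others in Control, 25.6-fold and 51.0-fold in TGFB1, 13.3-fold and 24.6-fold in the combined treatment, and 15.1-fold and 27.6-fold in miR-9-LOF (lower at members in 4 of 4 libraries, exact sign-flip permutation p = 0.13). Against the product of the lines of both promoters, that is the squared ratio in the lines divided by the ground, the order was turned. The centre was then 0.582 of this product at members and 0.441 at the others in Control, and members were higher in 4 of 4 libraries, by 1.16 times on average (exact sign-flip permutation p = 0.13). The order of the centres thus depended on what they were set against. Beyond 250 kb the central ratio itself was lower at members, at 66.8 and 95.3 in Control.

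**Figure D4:**
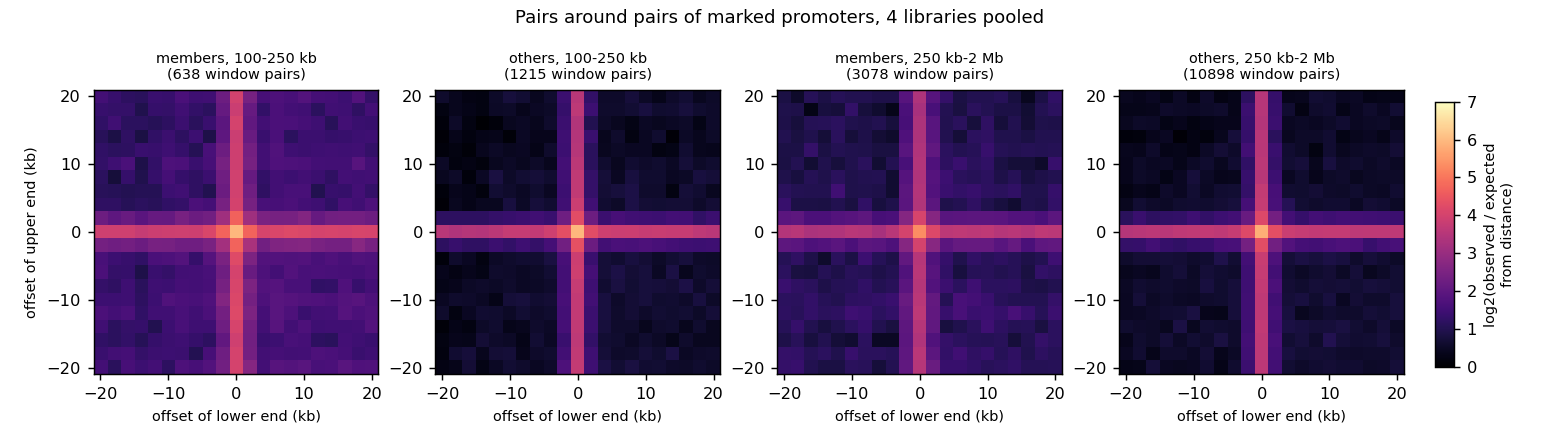
Pairs around pairs of marked promoters, summed over the 4 libraries, as log2 of the observed over the number expected from distance (colour), by the offset of either end from its promoter (kb, both axes). From 100 to 250 kb the central square is alike in members and others, while the ground off the cross is brighter at members (3.19 and 1.46 on the linear scale in Control). Further promoters were not left out of the ground.

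Between chromosomes, 4278 pairs joined member windows in Control where 3424 were expected from the number of such ends on each chromosome, a ratio of 1.25 with a counting interval of 1.21 to 1.29. Windows without a member had 0.728. The ratios were 1.63 and 0.903 in TGFB1, 1.68 and 0.994 in the combined treatment and 1.71 and 0.949 in miR-9-LOF, and members were higher in 4 of 4 libraries by 1.75 times on average (exact sign-flip permutation p = 0.13).

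Of the 105442 pairs of member windows 1206 were joined by at least 20 pairs over the libraries, and 267 of these exceeded the number expected from distance and coverage. The 8 with the largest excess were chosen by that measure and are given as a description. The windows of Parp10 and Grina and of Exosc4, Oplah and Gpaa1 on chromosome 15, 84.2 kb apart, were joined by 49 pairs in Control, 32 in TGFB1, 21 in the combined treatment and 16 in miR-9-LOF. Their sum of 118 was 1.74 times the 67.7 expected from coverage and 74.0 times that from distance. Gpaa1, which attaches lipid anchors to proteins, was the most strongly marked gene of the 5, with a mean level of 26.1. Id1, an inhibitor of helix-loop-helix factors that is induced by the TGFB family, and Bcl2l1, which protects cells from apoptosis, lie 95.5 kb apart on chromosome 2. They were joined by 26, 15, 5 and 11 pairs in the same order, 142 times the number expected from distance and 2.01 times that from coverage. This was the largest ratio to distance of the 8.

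Spsb2, an adaptor of ubiquitin ligases on chromosome 6, occurred in 2 of the pairs, with the enolase gene Eno2 at 39.0 kb (31, 11, 3 and 12 pairs) and with Atn1 and Gm45234 at 52.4 kb (24, 13, 6 and 15 pairs). Wbp2 was joined with Trim47 and Trim65 on chromosome 11 by 38, 24, 15 and 20 pairs, and Leng1 with Tsen34 and Mboat7 on chromosome 7 by 25, 13, 6 and 9. Unmarked promoters took part as well. Aif1, a gene of macrophages at a mean level of 3.87, was joined with Atp6v1g2 and Nfkbil1 by 16, 6, 2 and 8 pairs in the histocompatibility complex, and the epithelial calcium-binding protein gene S100a2, at 3.35, with its relative S100a6 by 17, 3, 4 and 6. In all 8 pairs Control had the most pairs, also per pair between 20 kb and 2 Mb in the library. Over the number expected from distance and coverage Control was highest in 1 of 8, the pair with Aif1. For Id1 and Bcl2l1 that ratio was 1.76, 2.20, 1.94 and 2.56 in the 4 libraries.

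The conditions were compared at the marked promoters, where the median level was lower in every library than in Control. Marked promoters were chosen by their mean level over the 4 libraries, Control among them. Unmarked members had medians of 3.84, 3.75, 3.38 and 3.39, and unmarked other promoters 1.97, 2.02, 2.04 and 1.997. A change in the mark and one in how strongly a library was enriched for it cannot be told apart here. The log2 ratio of levels in TGFB1 over Control had a median of -0.45 in all 5033 marked promoters with ends in both libraries and of -0.45 in the 982 marked members. For the combined treatment over TGFB1 the medians were -0.72 and -0.74, and for miR-9-LOF over Control -0.96 and -0.93. Relative to all marked promoters the median member stood at 0.01, -0.02 and 0.03. For the combined treatment over miR-9-LOF, a comparison added after the data were seen, the median was -0.21 in all marked promoters and -0.26 in marked members, which is -0.05 relative to all and the furthest of these 4 from 0. The middle 50% of members lay between -0.08 and 0.10 for TGFB1 over Control, between -0.12 and 0.08 for the combined treatment over TGFB1 and between -0.07 and 0.14 for miR-9-LOF over Control. Over the members the SD of the log2 ratio was 0.16, 0.16 and 0.21, and the median counting error (SE) of a single ratio was 0.09 to 0.12. TGFB1 over Control and miR-9-LOF over Control share the Control library. TGFB1 over Control and the combined treatment over TGFB1 share the TGFB1 library, which enters them with opposite sign. Without replicates none of these ratios has a check against the spread between cultures.

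**Figure D5:**
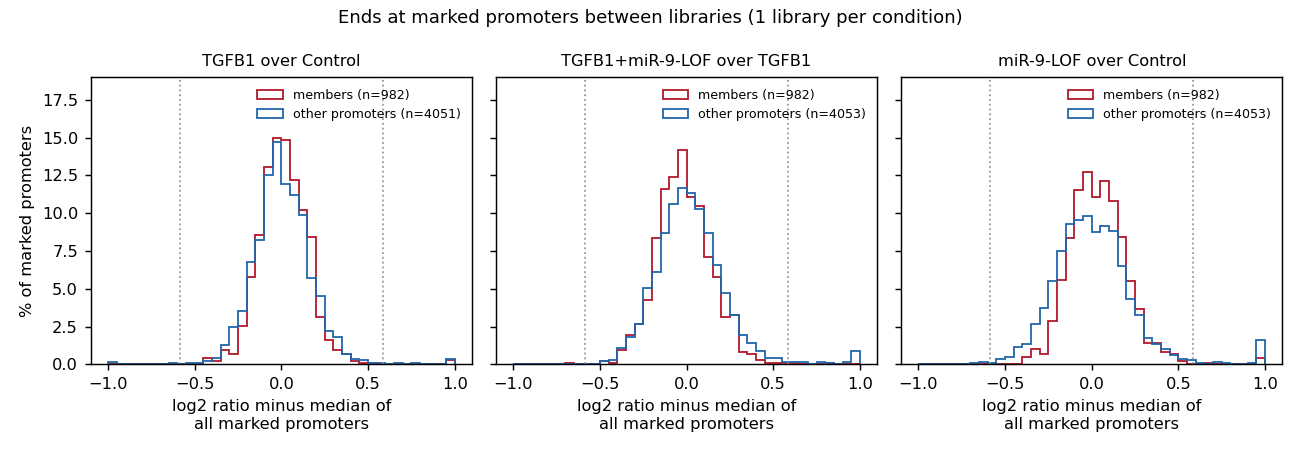
Distribution of the log2 ratio of levels at marked promoters (horizontal axis, minus the median of all marked promoters) in members (red) and other promoters (blue), as percent of each (vertical axis), for 3 comparisons of libraries. Values beyond 1 on either side are in the outermost bars, and dotted lines mark 1.5-fold. Members centre on 0.01, -0.02 and 0.03.

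Few members were more than 1.5-fold away from the median of marked promoters. For TGFB1 over Control 3 members were higher and 0 lower, where 0.596% and 0.238% of all marked promoters were higher and lower. For the combined treatment over TGFB1 it was 2 and 1 (1.35% and 0.0993% of all), and for miR-9-LOF over Control 5 and 0 (1.83% and 0.238%). With at least 200 ends in the 2 libraries together 0, 0 and 1 members were higher and 0 lower. Of all marked promoters at that depth 0.0606% were higher and 0.0404% lower for TGFB1 over Control, 0.206% and 0.0619% for the combined treatment over TGFB1, and 0.485% and 0.243% for miR-9-LOF over Control.

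In TGFB1 over Control the members with the largest positive differences at that depth were Gal3st4, Marcksl1 and Fxyd5. Gal3st4, a sulfotransferase on chromosome 5, had 7.18, 7.60, 5.39 and 4.71 in the 4 libraries. Relative to the median its log2 ratio was 0.54, with an exact binomial interval of 0.23 to 0.84. Marcksl1, which binds actin and calmodulin, stood at 0.49, and Fxyd5, a regulator of the sodium pump, at 0.45. The largest negative differences were those of Tmem176b and Tmem176a, membrane protein genes that start 577 bases apart on opposite strands of chromosome 6 and share ends, at -0.44 for both, and of 2410002F23Rik at -0.41. Tmem176b had 17.2, 9.24, 8.36 and 8.02 in the 4 libraries, and marked promoters as a whole were highest in Control too.

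For the combined treatment over TGFB1, Tmem176b (0.58), Tmem176a (0.46) and Smarcb1 (0.44), a subunit of the SWI/SNF chromatin remodeller, were furthest above the median. The positions of Tmem176b and Tmem176a in this contrast and in TGFB1 over Control rest on the same TGFB1 counts. Zbtb45 (-0.49), Pex19 (-0.45), which imports membrane proteins into peroxisomes, and Nemp1 (-0.43), a protein of the nuclear envelope, were furthest below it. Nemp1 had 34.8, 25.4, 11.48 and 17.3 in the 4 libraries. For miR-9-LOF over Control the centrosomal gene Cep85 (0.69), Marcksl1 (0.54) and the lipid enzyme Lpcat4 (0.54) were highest, and Ube2j2 (-0.39), Smarcd2 (-0.39) and Lpxn (-0.38) lowest. Cep85 had 8.17, 7.74, 4.46 and 6.80 in the order of the conditions above. Smarcd2, like Smarcb1 a subunit of SWI/SNF, had 36.2, 25.4, 16.2 and 14.3, an order in which miR-9-LOF and not the combined treatment was lowest.

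S100a6 was marked, with 29.4, 22.4, 12.1 and 13.6 in the 4 libraries. S100a4, a marker of fibroblasts, stood at 10.9, 7.70, 5.17 and 5.45 and was marked by the chromosome mean alone. Of 18 TGFB1 response genes found 5 were members (27.8%, against 21.6% of all genes) and 2 of these were marked by the local measure and 4 by the chromosome mean, beside 24.2% and 31.1% of all promoters. Outside the set 12 of 13 were marked by the local measure. Id1 had 41.6, 29.8, 15.3 and 16.5, and the AP-1 factor Junb 28.3, 19.7, 10.4 and 12.8. The AP-1 factor Fosl1 was marked by the chromosome mean alone and had 15.04, 10.7, 7.17 and 11.2. Ltbp4, which stores latent TGFB1 in the matrix, had 5.07, 4.81, 4.31 and 3.96, was not marked and was lowest in miR-9-LOF. Relative to the median of marked promoters, TGFB1 over Control was -0.03 for Id1 and -0.07 for Junb, within the middle 50% of marked members. For miR-9-LOF over Control Id1 stood at -0.38 and Junb at -0.19, below it. Of 6 genes that the study examined singly 2 were members, Zdhhc5 with 7.995, 6.40, 4.27 and 5.45 and Prap1 with 2.04, 1.68, 2.49 and 1.59. Neither was marked, at 2.55-fold and 0.973-fold the local median. The study used Prap1 as a negative control for the presence of miR-9 at promoters. At the Zdhhc5 promoter it reports H3K4me3 by CUT&Tag and ChIP. An unmarked promoter here, such as that of Zdhhc5, is thus not necessarily one without H3K4me3.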

How the data were processed

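The deposited files list valid HiChIP pairs, 1 file per library, as the positions of both ends, a distance and a mapping quality score for each end. Per the labels and the study's methods the authors aligned the reads to mm10 with HiC-Pro (version not given in the sources used here), assigned ends to MboI fragments and removed duplicates. Here positions were counted, and the deposited score was used only to require a mapping quality of at least 30 in an alternative. Genes were taken from GENCODE on mm10 and promoter sequences from RefSeq (GRCm38.p6). Ends within 2 kb of each TSS and pairs between windows 20 kb to 2 Mb apart were counted with Python 3.11.15, numpy 2.4.6, pandas 2.3.3, numba 0.67.0 and scipy 1.17.1. The counting was tested on simulated data. Intervals are 95% exact Poisson or binomial, Wilson for shares, and cover counting error only. With 1 library per condition, contrasts have no test. Member against other differences were set over 4 libraries of 1 line with a two-sided exact sign-flip permutation test, whose smallest p is 0.13 (rounded). The libraries differ in condition, and these p-values were not adjusted. Members and gene lists were chosen with earlier results of these data known. Named genes were the 5 highest members, the extremes of the 3 largest stretches, the 8 window pairs with the largest excess over coverage, the 3 furthest members on each side of each contrast with at least 200 ends, and members of the lists, of which 1 is not reported here. Others are said to be chosen after their values were seen, or stand among the genes with the most neighbours.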

Additional observations from a re-analysis of the deposited data

Results flagged for a closer look

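For the 15 genes named in the contrasts the difference of TGFB1 over Control was set beside that of TGFB1+miR-9-LOF over miR-9-LOF, both as log2 ratios relative to the median of all marked promoters. For 2 genes they lay on opposite sides of the median, with 95% exact binomial intervals that do not reach it. At Tmem176b the value was -0.44 (-0.69 to -0.20) without the miR-9 antagomiR and 0.27 (0.00234 to 0.54) with it, a difference of -0.71. The lower limit of the second interval thus barely clears the median. Its level was 17.2, 9.24, 8.36 and 8.02 in the 4 libraries, in the order of the report. Tmem176a, which shares ends with Tmem176b, was among the 15 genes and was not flagged. At Cep85 the values were 0.38 (0.08 to 0.67) and -0.40 (-0.74 to -0.06), a difference of 0.77, from 240, 161, 120 and 201 ends in the same order. The genes were named for being far from the median in one of the contrasts that share these libraries. With 1 library per condition the difference was not tested against replicates, and the intervals cover counting error only.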

How the results depend on the processing

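No paired analysis was possible because each condition has 1 library and no comparison of conditions has a test, and for the same reason no library could be left out of a contrast. The ratio of median levels, members over others on the mean of the libraries, was 1.68. It was 1.76 where left-out families did not count as neighbours. In alternatives chosen after seeing the data it was 1.54 against others without the left-out families, 1.5004 for promoters with no other TSS within 4 kb and 1.25 within 4 classes of GC content. The share of marked members, 21.8%, was 39.2% by the chromosome mean and 34.3% with 1 kb on either side. The ratio of pairs joining member windows to distance was 8.27. Against distance and coverage it was 0.529, which reverses the direction. It was 4.36 with 5 kb on either side, 8.46 with a mapping quality of at least 30, 8.01 with each pair of fragments counted once, 8.42 where left-out families did not count as neighbours and 30.3 for marked windows. Over all promoters with at least 100 ends the median member stood at -0.00998 for TGFB1 over Control, against 0.00714 at marked promoters. For miR-9-LOF over Control it stood at -0.0189, against 0.03. Both values changed sign. The remaining 15 values, among them the set of 4155 members where left-out families did not count as neighbours, kept their direction. Of the contrasts among them, TGFB1 over Control was 0.00354 with 1 kb on either side and 0.00233 with a mapping quality of at least 30, against 0.00714, and the combined treatment over TGFB1 was -0.0137 within 4 classes of GC content, against -0.0244. The cause of these shifts was not tested. Depth limits single promoters, since 1 end is 0.0339 to 0.0481 per 1000000, and single window pairs, of which 32.8% were joined by any pair.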
